A study of Mus musculus musculus x M. m. domesticus and Mus musculus domesticus and Mus musculus with 12 samples.

Results

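Of 7000 genes measured in whole testis of adult house mice, 108 were far higher in *M. domesticus* than in *M. musculus*. A gene was counted when the lowest of the 3 values from males of the *domesticus* cross lay at least 0.75 on the log2 scale above the highest of the 3 values from males of the *musculus* cross. This distance is called the gap, and the chosen genes the *domesticus*-high genes. They are 1.54% of all genes. Without a minimum gap, every male of the *domesticus* cross was above every male of the *musculus* cross in 19.8% of all genes. The mirrored rule, with every *musculus* male at least 0.75 above every *domesticus* male, was met by 127 genes, or 1.81%. Expression was measured in 12 males aged 60 days, 3 from each of 4 crosses, on 1 Affymetrix mouse genome array per male. All 12 were F1 males, named with the maternal strain first. The *M. domesticus* cross, *DxD*, joined LEWES/EiJ with WSB/EiJ, and the *M. musculus* cross, *MxM*, joined PWK/PhJ with CZECHII/EiJ. Both were fertile. The reciprocal hybrids were *DxM*, from LEWES/EiJ x PWK/PhJ, which were fertile, and *MxD*, from PWK/PhJ x LEWES/EiJ, which were sterile. The hybrids carry no WSB/EiJ or CZECHII/EiJ chromosomes, so *DxD* and *MxM* males share only 1 of their 2 strains with them. The labels do not say whether males of a genotype were litter mates, and p-values measure the spread between these males only.

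An F1 hybrid male has 1 *domesticus* and 1 *musculus* copy of every autosomal gene, whichever species was the mother. Its X chromosome comes from the mother and its Y chromosome from the father. Suppose that each copy keeps its output from within its own species, and that neither strains of a species nor testis cell composition differ. The amount of transcript in the hybrid would then be the mean of both species on the linear scale. This reference level is called the linear mean here, and on the log2 scale it lies above the midpoint of both species. It does not apply to X-linked genes, of which a male has 1 copy. Likeness of the strains was not tested, and the study's histology shows fewer germ cells in *MxD* testes. A deviation from the linear mean thus need not be a changed output per copy. Spermatogenesis proceeds from mitotic spermatogonia through meiotic spermatocytes to postmeiotic spermatids, and the testis also holds somatic cells such as Sertoli and Leydig cells. In whole testis, fewer cells of a type and less RNA per cell cannot be told apart. Probes of this array match the sequence of laboratory strains, which descend mostly from *M. domesticus*.

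The files name genes by Ensembl identifier only, so most genes are described below by their rank in the gap, from 1 for the widest, and no functions are given for them. A symbol was known for 45 of the 7000 genes, 32 of them X-linked, and none of the 45 was *domesticus*-high. Apart from these 45 and from 1997 genes on chromosomes 1 to 5, X linkage was not known here. The 45 include Cyp17a1, a steroid-synthesis enzyme of Leydig cells, which measured 9.54 to 11.3 in the 12 males and so was well detected in this tissue. The chromosome and testis cell type used here cover 1997 of the 7000 genes, all on chromosomes 1 to 5. Per the study, a cell type marks where a gene was most strongly induced. It need not mean that the gene is expressed there only. The sorted values are the same in the 12 arrays, from 3.08 to 13.3 with a median of 8.14 on the log2 scale. In *MxM* replicate 3, 131 of the 7000 genes lay at least 1 below every other male, and 2 of these were *domesticus*-high.

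The gap of the 108 genes ran from 0.754 to 6.65, with a median of 1.03. It was at least 1 in 57 genes, at least 2 in 11 and at least 4 in 2. The mean difference between *DxD* and *MxM* had a median of 1.35 and ran from 0.85 to 7.16. These differences chose the genes and are given as a description. The 2 genes just inside the threshold had gaps of 0.756 and 0.754, and the 2 genes just outside had gaps of 0.749 and 0.748. In *DxD* the genes spanned mean levels from 6.01 to 11.4, and in *MxM* from 3.29 to 10.3. The median level fell in order from 8.25 in *DxD* to 7.70 in *DxM*, 7.58 in *MxD* and 6.67 in *MxM*. The spread within a genotype was typical of the arrays. For *DxD* the SD had a median of 0.08 over the 108 genes, for *MxM* 0.17, for *DxM* 0.11 and for *MxD* 0.13, against 0.08, 0.15, 0.11 and 0.12 over all 7000 genes.

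The widest gap was that of ENSMUSG00000030062. Its values were 10.37, 10.52 and 10.47 in the *DxD* males and 3.08, 3.08 and 3.72 in the *MxM* males. In *MxM* replicates 1 and 2 it was the lowest of 7000 genes, and in replicate 3 the second lowest, so its difference of 7.16 rests on values at the bottom of the array. The hybrids measured 9.77, 10.04 and 9.83 in *DxM* and 9.95, 10.13 and 10.09 in *MxD*. All 6 hybrid males lay close to *DxD*, below every *DxD* male and above the linear mean of 9.46. The hybrids' means exceeded the linear mean by 0.42 in *DxM* and 0.59 in *MxD*, larger than their SDs of 0.14 and 0.09 (n = 3 each).

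The second widest gap was that of ENSMUSG00000026096 on chromosome 1, a gene of the meiotic class. Its values were 8.76, 8.98 and 9.04 in *DxD* and 4.53, 3.72 and 4.29 in *MxM*. In the *MxM* males it ranked 20, 2 and 11 from the bottom of the array. The hybrids measured 7.80, 8.03 and 8.08 in *DxM* and 7.79, 8.05 and 8.03 in *MxD*. Both hybrid means, 7.97 and 7.96, lay 0.02 below the linear mean of 7.98. Both genes thus had *MxM* values at the bottom of the array, and their hybrids lay in different places relative to the linear mean.

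The next 3 genes had no *MxM* value in the lowest 1% of an array, up to 4.99. The third gene measured 8.96 to 9.13 in *DxD* and 6.13 to 6.39 in *MxM*, with *DxM* at 8.38 ± 0.13 (SD, n = 3) and *MxD* at 8.17 ± 0.12 around a linear mean of 8.24. The fourth measured 8.45 to 8.47 in *DxD* and 5.45, 5.61 and 6.03 in *MxM*. Its values of 5.45 and 5.61 lay in the lowest 5% of their arrays. Its hybrids lay below the linear mean of 7.66, at 7.17 ± 0.14 in *DxM* and 6.88 ± 0.09 in *MxD*. The fifth, a mitotic gene on chromosome 3, had a mean above the array median of 8.14 in every genotype. It measured 11.30 to 11.52 in *DxD* and 7.37, 8.94 and 9.12 in *MxM*, and its hybrids were near *DxD* at 11.1 ± 0.19 and 11.3 ± 0.12. Its *MxM* males were far apart, with replicate 1 the lowest and below that median. Among the 15 genes of rank 6 to 20, all 6 hybrid males lay between the species in 12. Both hybrids were more than 0.25 below the linear mean in 4 of the 15 and more than 0.25 above it in 2. The 2 genes for which *MxM* replicate 3 was at least 1 below every other male have ranks 12 and 19, and its lower value did not set their gap, which is measured from the highest *MxM* male.

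**Figure D1:**
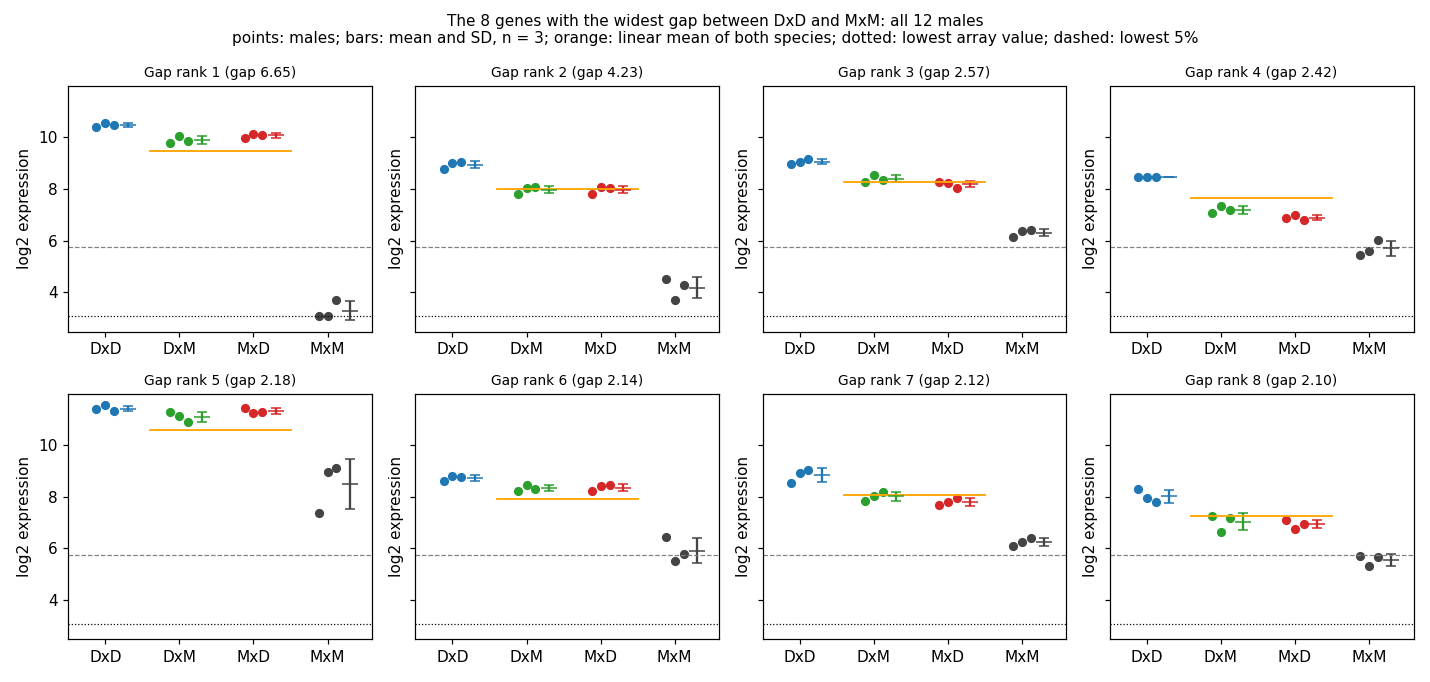
Log2 expression of the 8 *domesticus*-high genes with the widest gap in all 12 males, with 1 panel per gene and 1 point per male. Bars give the mean and SD (n = 3), the orange line the linear mean of both species, the dotted line the lowest value of an array (3.08) and the dashed line the upper bound of its lowest 5% (5.76). Only the genes of rank 1 and 2 have *MxM* values close to the dotted line.

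Whether low *MxM* values sit at the floor of the array was examined by rank, which places genes only relative to each other. Per the study's methods, genes were kept where a detection test passed in all 12 males, so a low value here is low among genes kept as detected. The 7000 genes are slightly more than the study counts as detected, and which ones differ is not known. The detection calls themselves were not analysed here. A value was called dim when it was among the lowest 5% of its array, which is 350 genes with values up to 5.76. All 3 *MxM* values were dim in 16 of the 108 genes, or 14.8%. Over all 7000 genes the share was 3.04%. At least 1 *MxM* value was dim in 31 genes, and no *DxD* value was dim in any. Within the lowest 1%, up to 4.99, all 3 *MxM* values were found for 5 genes, and 0.386% of all genes met this bound. With 10% as the bound the count was 28, where 7.01% of all genes met it. Only ENSMUSG00000030062 touched the lowest value of an array, which few genes can hold since the sorted values are the same in every array. Ranks alone cannot show how many genes sit at background. The rule picks low *MxM* values, so these shares describe the choice. Without *MxM* replicate 3, the rule took 150 genes and 31 were dim in the remaining *MxM* males.

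With 25% as the bound, up to 7.03, the count was 62, or 57.4%, where 20.9% of all genes met it. Few *domesticus*-high genes thus had all 3 *MxM* values within the lowest 1%, but most had them within the lowest 25%. The *MxM* mean was above the array median in 16 genes and the *DxD* mean in 58. The mirrored set was dim more often in its lower species, where all 3 *DxD* values were in the lowest 5% for 31 of 127 genes, or 24.4%, against 4.13% of all genes. Within the lowest 1% there were 11, or 8.66%, against 0.714% of all genes. The difference between both sets was not tested. Among the 5 genes within the lowest 1% of *MxM*, the hybrids differed in place. On chromosome 1, the gene of rank 13 measured 6.73 to 6.97 in *DxD* and 4.83 to 4.86 in *MxM*, and its hybrids stayed low, at 5.11 ± 0.23 in *DxM* and 5.32 ± 0.14 in *MxD*. A mitotic gene of rank 22 on chromosome 1 measured 6.42 to 6.61 in *DxD* and 4.58 to 4.97 in *MxM*. Its hybrids were at 5.95 ± 0.08 and 5.89 ± 0.11, beside a linear mean of 5.88. The gene of rank 56 measured 5.95 to 6.14 in *DxD* and 4.53 to 4.94 in *MxM*, with *DxM* at 4.93 ± 0.24 near *MxM* and *MxD* at 5.42 ± 0.04 near the linear mean of 5.55. Signals of single probes were not analysed here. With values per gene, less transcript in *MxM* and a poorer match of probes to *musculus* sequence cannot be told apart.

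**Figure D2:**
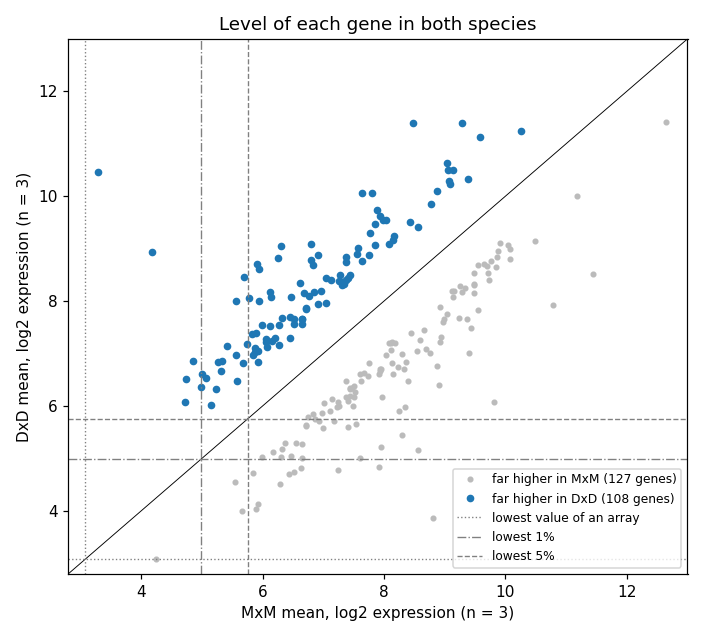
Mean log2 expression (n = 3) of each gene in *MxM* (horizontal) and *DxD* (vertical), with the 108 *domesticus*-high genes in blue and the 127 genes of the mirrored set in grey. Lines mark the lowest value of an array and its lowest 1% and 5%. The blue points run from *MxM* levels of 3.29 to 10.3, and 16 have all 3 *MxM* values in the lowest 5%.

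Where the hybrids lay between the species was given as a position, the hybrid mean minus the *MxM* mean, divided by the *DxD* mean minus the *MxM* mean. A position of 0 is the *MxM* mean and 1 the *DxD* mean. The rule selected on these same species means, so any overstatement of the difference carries into the positions, and no test was run on them. The median position was 0.613 in *DxM* and 0.547 in *MxD*. The linear mean had a median position of 0.613. Taken male by male, the median over the 108 genes was 0.598, 0.633 and 0.642 in the *DxM* males and 0.552, 0.586 and 0.562 in the *MxD* males. The 3 *DxM* medians were above the 3 *MxD* medians. This order turned among the 57 genes with a gap of at least 1, with medians of 0.635 in *DxM* and 0.645 in *MxD*. On the linear scale, where the linear mean is at 0.5 by construction, the median positions were 0.494 in *DxM* and 0.427 in *MxD*.

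The position varied widely between genes. In *DxM*, 5 genes had a mean below *MxM*, 9 a position from 0 to 0.25, 16 from 0.25 to 0.5, 49 from 0.5 to 0.75, 25 from 0.75 to 1 and 4 above *DxD*. In *MxD* the counts in the same order were 6, 11, 26, 39, 24 and 2. Both hybrids were nearer to *DxD* in 60 genes and nearer to *MxM* in 25, and in 23 they lay on either side of the midpoint. Relative to the linear mean, *DxM* was within 0.25 on the log2 scale in 67 genes, lower by more in 21 and higher by more in 20. The *MxD* mean was within 0.25 in 52 genes, lower by more in 38 and higher by more in 18. These counts include genes of unknown chromosome, to which the linear mean does not apply where they are X-linked. The median deviation from the linear mean was -0.01 in *DxM* and -0.09 in *MxD*. In the mirrored set, with 1 at the *MxM* mean, the median positions were 0.549 in *DxM* and 0.575 in *MxD*, beside 0.605 for the linear mean.

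Positions rose with the size of the difference, as the linear mean does. In the 48 genes that differed by less than 1.25 between the species, the median position was 0.587 in *DxM* and 0.453 in *MxD*, with the linear mean at 0.591. In the 43 genes that differed by 1.25 to 2, it was 0.634 and 0.645, with the linear mean at 0.624. In the 17 genes that differed by more than 2, it was 0.681 and 0.652, with the linear mean at 0.691. In the 16 genes dim in *MxM* the medians were 0.718 in *DxM* and 0.652 in *MxD*, and in the other 92 genes 0.604 and 0.538.

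**Figure D3:**
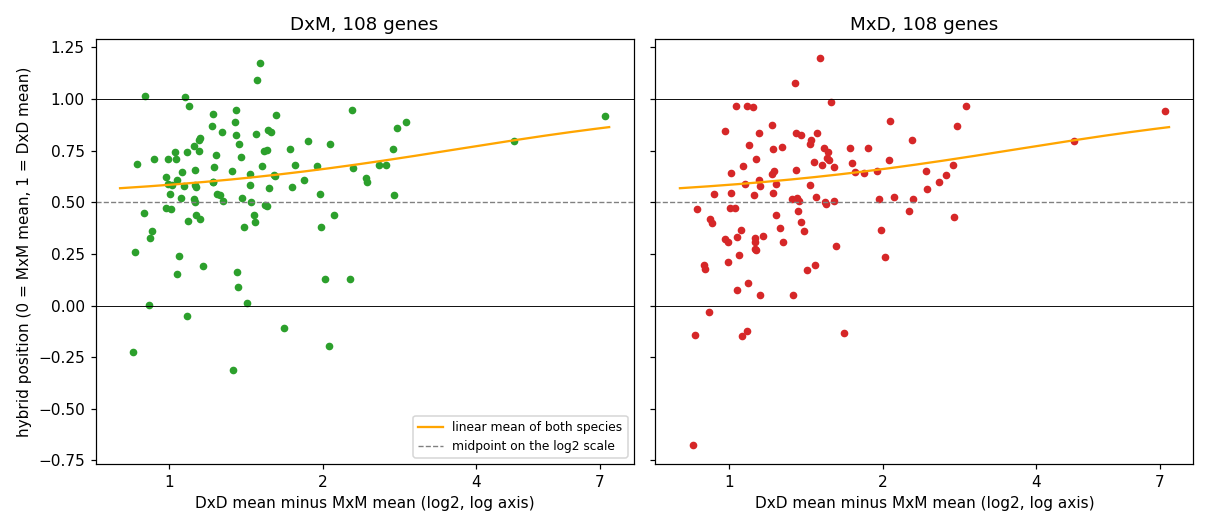
Position of the hybrid mean between the species (0 at *MxM*, 1 at *DxD*) against the difference between *DxD* and *MxM* on a log axis, for *DxM* (left) and *MxD* (right), with 1 point per gene (108 genes). The orange curve is the linear mean of both species and the dashed line the midpoint on the log2 scale. The points scatter to both sides of the curve, with medians of 0.613 in *DxM* and 0.547 in *MxD*.

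All 6 hybrid males lay between the highest *MxM* and the lowest *DxD* male in 70 of the 108 genes, or 64.8%. Among all 1384 genes in which every *DxD* male was above every *MxM* male, the share was 11.3%, but a wider gap leaves more room. In 20 genes at least 1 hybrid male reached down into the *MxM* range or below, and in 19 at least 1 reached up into the *DxD* range or above. All 6 hybrid males were at or below the highest *MxM* male in 4 genes, and at or above the lowest *DxD* male in 1.

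In ENSMUSG00000024209, of rank 93, all 6 hybrids were below both species. It measured 9.39, 9.39 and 9.43 in the *DxD* males and 8.57, 8.55 and 8.54 in the *MxM* males. The hybrids measured 8.32, 8.24 and 8.52 in *DxM* and 8.03, 7.93 and 7.99 in *MxD*. Its *MxD* males were also all below the *DxM* males. The opposite case was ENSMUSG00000015090 of rank 43, a mitotic gene on chromosome 2. It measured 9.36, 9.51 and 9.78 in *DxD* and 8.01, 7.90 and 8.21 in *MxM*, while the hybrids measured 10.04, 9.91 and 9.48 in *DxM* and 9.87, 9.79 and 9.88 in *MxD*. Of its 6 hybrid males, 5 were above every *DxD* male, and *DxM* replicate 3 lay within the *DxD* range. A gene of rank 26 had both hybrids at the *MxM* level, at 7.76 ± 0.19 in *DxM* and 7.72 ± 0.28 in *MxD* against 7.94 ± 0.23 in *MxM* and 9.62 ± 0.12 in *DxD*. A postmeiotic gene of rank 64 on chromosome 1 did the same at a lower level, with 6.16 ± 0.08 in *DxM* and 6.08 ± 0.10 in *MxD* against 6.21 ± 0.13 in *MxM* and 7.29 ± 0.03 in *DxD*. After ENSMUSG00000015090, the hybrids were nearest to *DxD* in the genes of rank 60, 28, 1 and 5, with positions of the mean of both hybrids from 0.929 to 0.983. At the other end followed the genes of rank 44, 26, 64 and 99, with positions from -0.132 to -0.015.

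The rule used no hybrid array, so the difference between the reciprocal hybrids was not selected on. The *DxD* and *MxM* arrays enter the limma fit through the shared estimate of the spread, and a fit without them is given beside it. Both hybrids have the same autosomal genotype, and they differ in the species of their X and Y chromosomes, in the mother, and in fertility. By the study's histology they also differ in the cell composition of the testis. By limma, 16 of the 108 genes differed between *MxD* and *DxM* after Benjamini-Hochberg adjustment at 5% over all 7000 genes. This is 14.8%, where 6.5% of all genes were called. Of the 16, 6 were higher in *MxD* and 10 lower, or 5.56% and 9.26%, against 3.0% and 3.5% of all genes. Fitted on the 6 hybrid arrays alone, limma called 12 of the 108, or 11.1% against 4.99% of all genes, and 10 of these were among the 16. The mirrored set had 20 of 127 called, or 15.7%. A fit blocked by replicate number called 26 genes, or 24.1% against 17.2% of all genes, and the 16 were among them. Of the 26, 9 were higher in *MxD*, or 8.33%, the same as the 8.33% of all genes, and 17 were lower, or 15.7% against 8.83%. Without *MxD* replicate 3 the count was 7, or 6.48% against 2.46% of all genes. Without *DxM* replicate 1, 2 or 3 it was 9, 10 and 10, or 8.33%, 9.26% and 9.26% against 3.1%, 3.63% and 2.94% of all genes. The methods' t-test with equal variances called 1 gene after adjustment, and 30 at an unadjusted p under 0.05, or 27.8% against 18.5% of all genes. With unequal variances it called none after adjustment and 22 unadjusted, or 20.4% against 15.0% of all genes. Limma had an unadjusted p under 0.05 for 35, or 32.4% against 21.8% of all genes. The median absolute difference between the hybrids was 0.19 in the *domesticus*-high genes and 0.12 over all genes. All 3 *MxD* males were above the 3 *DxM* males in 14 of the 108 genes and below them in 25, where 13.5% and 12.9% of all genes did so.

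The largest difference between the hybrids was in ENSMUSG00000042607, of rank 14. It measured 8.09, 8.24 and 8.22 in *DxD* and 5.98, 6.23 and 6.18 in *MxM*. The *DxM* males, at 5.79, 5.48 and 5.91, were below all *MxM* males, and the *MxD* males, at 7.39, 7.51 and 7.83, lay between the species around the linear mean of 7.49. By limma, *MxD* exceeded *DxM* by 1.85 ± 0.13 (standard error), with an adjusted p of 7.9e-05. ENSMUSG00000020164, of rank 9, was also higher in *MxD* than in *DxM*. Its values were 10.04, 10.06 and 10.07 in the *DxD* males and 7.61, 7.82 and 7.96 in the *MxM* males. The hybrids measured 8.19, 8.09 and 7.98 in *DxM* and 8.57, 9.01 and 8.92 in *MxD*. The *DxM* males lay just above the *MxM* males and the *MxD* males near the middle, 0.75 ± 0.12 apart (standard error, adjusted p = 0.0048 by limma). The other 4 genes called higher in *MxD* differed by 0.43 to 0.50. The *DxM* position of the 6 genes was between -0.31 and 0.50 and their *MxD* position between 0.05 and 0.80.

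Among the 10 genes called lower in *MxD*, the largest differences were in ENSMUSG00000048824 and ENSMUSG00000050379, of rank 98 and 96. ENSMUSG00000048824 is a postmeiotic gene on chromosome 4. It measured 7.03, 7.18 and 7.19 in the *DxD* males and 5.89, 6.10 and 6.23 in the *MxM* males. The hybrids measured 6.67, 6.87 and 6.75 in *DxM* and 5.93, 6.05 and 5.76 in *MxD*. Here the *MxD* males were at the *MxM* level and the *DxM* males near the linear mean of 6.70, for an *MxD* minus *DxM* of -0.85 ± 0.10 (standard error, adjusted p = 0.0010 by limma). ENSMUSG00000050379 measured 6.47, 6.46 and 6.47 in *DxD* and 6.46, 6.46 and 6.53 in *DxM*, which overlapped. It measured 5.72, 5.77 and 5.71 in *MxD* and 5.59, 5.48 and 5.66 in *MxM*, so each hybrid was close to the cross of its maternal species. Here *MxD* minus *DxM* was -0.75 ± 0.06 (standard error), with a limma adjusted p of 2.6e-04. At rank 86, 1 gene had a larger difference of -1.02 ± 0.30, but its males varied more and it did not pass (limma adjusted p = 0.069, or 0.018 with the replicate block). The remaining 8 genes called lower in *MxD* differed by -0.34 to -0.45.

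**Figure D4:**
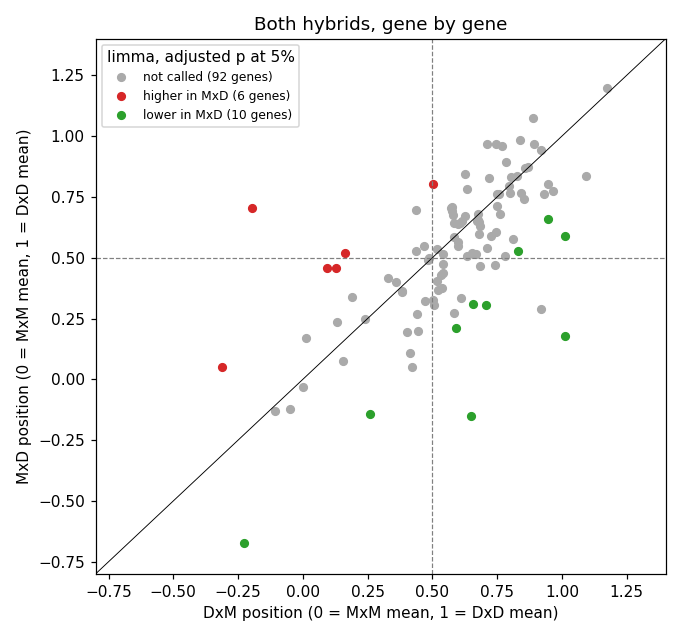
Position of *MxD* against position of *DxM* for the 108 genes (0 at the *MxM* mean, 1 at the *DxD* mean). Genes called between the hybrids by limma (adjusted p at 5%) are red where higher in *MxD* (6 genes) and green where lower (10 genes). Most points follow the diagonal, where both hybrids have the same position.

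**Figure D5:**
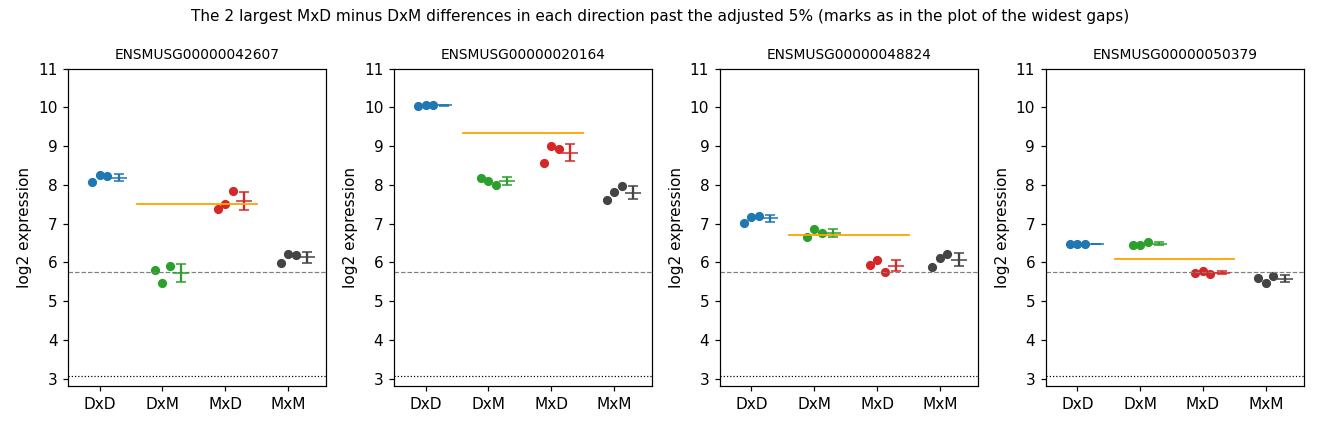
Log2 expression in all 12 males for the 2 largest differences in each direction among the genes called between the hybrids. Points are males, bars the mean and SD (n = 3), the orange line the linear mean of both species, the dotted line the lowest array value and the dashed line the lowest 5%. In the genes of the left pair *MxD* is above *DxM*, by 1.85 and 0.75, and in the right pair below, with differences of -0.85 and -0.75.

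Chromosomes were known for 41 of the 108 genes, among the 1997 genes covered. These were 12 of 415 covered genes on chromosome 1, 12 of 589 on chromosome 2 and 8 of 361 on chromosome 3. On chromosome 4 they were 7 of 435, and in the part of chromosome 5 covered 2 of 197. The 24 of the 41 genes that also had a testis cell type were 7 meiotic, 5 mitotic, 8 postmeiotic and 4 somatic genes. This is 2.16% of 324 meiotic, 1.36% of 367 mitotic, 2.97% of 269 postmeiotic and 2.82% of 142 somatic genes covered. Of the 895 covered genes with no cell type, 17 met the rule, or 1.90%. Differences between these shares were not tested. In all 8 postmeiotic genes the *MxD* mean was below the *DxM* mean, with a median difference of -0.30, and 3 passed the limma test. Over all 269 postmeiotic genes covered the median was -0.20, and 38, or 14.1%, were called lower. The median position of the 8 genes was 0.653 in *DxM* and 0.208 in *MxD*. All 4 somatic genes and 4 of the 5 mitotic genes had a higher mean in *MxD*, with median differences of 0.13 and 0.20, beside 0.11 and 0.16 over all genes of these types. Of these 9, 1 mitotic gene passed, where 28 of all 367 mitotic genes, or 7.63%, were called higher. The 7 meiotic genes were split, with 4 higher in *MxD* and 1 of these past the test, where 3 of all 324 meiotic genes were called higher. In the study's histology, sterile *MxD* males had fewer germ cells, and their postmeiotic cells were strongly reduced. The part of cell composition in these differences was not tested.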

How the data were processed

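Each of the 12 males was measured on 1 array. The deposited values are log2 expression per Ensembl gene. To make them, the authors combined probe signals with PLIER under version 11 of the BRAINARRAY probe definitions. They retained genes whose perfect match probes exceeded their mismatch probes in each of the 12 males, and then applied quantile normalization. No further normalization was applied here. Chromosome (Ensembl version 52, NCBI build 37) and cell type came from the study's annotation. The cell types rest on published arrays of enriched testis cell populations. Precision is limited by the number of arrays, since these have no sequencing depth.

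The genes and lists described were chosen with earlier results of these data known. The contrast between the hybrids was fitted with limma 3.58.1 in R 4.3.3 across 7000 genes, with 1 coefficient per genotype, two-sided. A check of the fit used simulated males drawn independently, so it leaves out the correlation between males described next. Deviations of same-numbered *DxM* and *MxD* males from their genotype means correlated with r of 0.756, 0.565 and 0.411 for replicates 1 to 3 across genes. The blocked fit therefore treats the numbers as pairing males. The labels do not say what the numbers mark, and the pairing comes from these values. The block also joins *DxD* and *MxM* males of the same number. No correlation is given for these, nor for males of different number. The study's methods block by nothing, so the unblocked fit comes first.

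Genes named were the widest gaps, the lowest *MxM* values, the largest hybrid differences, the extreme positions and the boundary. Symbol lists (cell type markers, gene families), X linkage and neighbouring genes had also been planned and were not used here, since symbols were known for 45 genes only, none of them *domesticus*-high. Alternatives were the methods' t-tests, other fits, centred arrays, other thresholds, removal of the dimmest 25% of genes, and each male left out. Figures were drawn with matplotlib 3.10.9.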

Additional observations from a re-analysis of the deposited data

How the results depend on the processing

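With a gap of 0.5 in place of 0.75, 228 genes met the rule, 25 of them dim in *MxM* and 111 with all 6 hybrids between the species, at median positions of 0.584 in *DxM* and 0.510 in *MxD*. With a gap of 1 there were 57 genes, 42 with all hybrids between, and *MxD* lay above *DxM*, at median positions of 0.645 and 0.635. Without the dimmest 25% of genes, 71 genes met the rule, 2 were dim in *MxM* and the median *MxD* position was 0.597. Of the 71, 9 differed between the hybrids, or 12.7% against 6.99% of all genes kept. On the linear scale the median positions were 0.494 and 0.427. With the lowest 1% or 10% as dim, 5 or 28 genes were dim. Leaving out each male in turn gave median positions of 0.590 to 0.657 in *DxM* and 0.531 to 0.586 in *MxD*. It gave 16 to 31 dim genes and 7 to 19 genes that differed between the hybrids. The 7 came without *MxD* replicate 3, or 6.48% against 2.46% of all genes. The 19 came without *MxM* replicate 1, or 17.6% against 7.8% of all genes. The 31 dim genes came without *MxM* replicate 3, where 150 genes met the rule, which then asks for fewer males. Besides, after Benjamini-Hochberg adjustment the methods' t-test called 0 genes between the hybrids with unequal variances. With equal variances it called 1, or 0.926% against 0.129% of all genes. The study called genes between the hybrids at an unadjusted p under 0.05. This bound was passed by 22 of the 108 genes with unequal and 30 with equal variances. The shares were 20.4% and 27.8%, against 15.0% and 18.5% of all genes. The replicate block called 26, or 24.1% against 17.2% of all genes. An adjusted p of 1% by limma left 6, or 5.56% against 2.21% of all genes. Centring the arrays moved none of these results past its limit. Without the genes dim in *MxM*, a setting added after seeing the data, the median positions were 0.604 and 0.538. The 4 genes named for their hybrid differences kept their direction in each setting that tested them. Without the dimmest 25% of genes, only ENSMUSG00000020164 was tested. They passed at an adjusted 5% in these settings except the methods' t-tests, where ENSMUSG00000050379 passed with equal variances. Where not stated otherwise, the cause of a change was not tested.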
